A study of Saccharomyces cerevisiae with 12 samples.

Results

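The genes described here encode the enzymes of oxidative phosphorylation in Saccharomyces cerevisiae that are made from nuclear genes. The 36 members do not cover every nuclear subunit: COX5A, COX5B, COX26, ATP19 and TIM11 are in a list of other subunits. Members were found by matching each deposited transcript to its RefSeq gene name, and all 36 were among the 5967 transcripts kept. The matching uses no measured value, but the members were chosen with earlier results of these data known. They comprise 3 single-protein NADH dehydrogenases, 4 subunits of complex II, 9 of complex III, cytochrome b2, 7 subunits of complex IV and 12 of ATP synthase. Every member passed the filter on low values in every comparison, and 0 had a library without reads, so no count below rests on a subset.

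RNA-seq was run on 12 libraries, 2 in each of 6 groups, all grown in medium lacking uracil at 30 °C to an OD600 of 0.4 to 0.5. Wild type (WT) is labelled BY4741, and the mutant, edc3∆lsm4∆C in the same labelled background, lacks EDC3 and the Q/N-rich C-terminal part of Lsm4. Each strain was grown without addition or with 100 mM sodium perchlorate present throughout growth, and WT cells were also either left unshocked or hit by a 5.6 Mach shock wave and then allowed to recover. Edc3 and the Lsm4 tail help assemble P-bodies, cytoplasmic granules of translationally repressed mRNA, and the series asks how such granules bear on survival of Mars-like stress.

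In yeast mitochondria electrons from NADH enter the chain through single-subunit dehydrogenases instead of the large proton-pumping complex I of other eukaryotes. Ndi1 faces the matrix, and Nde1 and Nde2 face the intermembrane space and oxidise cytosolic NADH. Complex II (succinate dehydrogenase) feeds electrons from the citric acid cycle to ubiquinone, complex III (cytochrome bc1) passes them to cytochrome c, and complex IV (cytochrome c oxidase) passes them to oxygen. Cytochrome b2 oxidises L-lactate and gives its electrons straight to cytochrome c, and ATP synthase uses the proton gradient to make ATP. Most of these genes are repressed by glucose, and the CCAAT-binding Hap2/3/4/5 complex is their best known activator.

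Recovered totals were 14108937 to 18360737 reads per library, with 5871 to 5895 transcripts detected. The labels do not say whether replicates were separate cultures, so each p-value reflects only how far these libraries spread, which may be technical. EDC3 had 745 to 1073 reads in the 4 untreated and perchlorate-treated WT libraries and 1 to 4 reads in the 4 mutant libraries. The count of the whole LSM4 gene does not check its truncation. The strains also differed at other loci: LEU2 had 0, 0, 0 and 23 reads in those WT libraries and 5366 to 6398 in the mutant, MET17 had 0, 0, 0 and 51 against 8873 to 30889, and the alpha-factor gene MF(ALPHA)1 had 4 to 60 against 6140 to 22817. The a-factor gene MFA1 went the other way, with 2967 and 2293 reads in untreated WT, 776 and 819 in perchlorate-treated WT and 6 to 13 in the mutant. Of 4 alpha-cell markers 3 were higher in the perchlorate-treated mutant and SAG1 was lower, with 435 and 400 reads against 647 and 522 in WT. The 23 LEU2, 51 MET17 and 60 MF(ALPHA)1 reads were all in WT perchlorate replicate 2, and their part in the results was not tested. URA3 had 2468 and 2071 reads in untreated WT and 8489 and 8675 in the untreated mutant. With perchlorate URA3 had 4198 and 3870 reads in WT and 6739 and 7126 in the mutant. In the shock experiment LEU2 had 0 and 20 reads unshocked and 5 and 23 shocked, and MET17 had 0 and 10 against 2 and 52. The deletions and the strain background cannot be told apart in any comparison of genotypes below. In bulk RNA, fewer cells of a type and less RNA per cell cannot be told apart either.

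The members were abundant transcripts, with ATP synthase highest and the lactate and second external NADH branches lowest. In untreated WT the median level was 6204 normalized reads per kb of transcript for ATP synthase, 4333 for complex IV, 3769 for complex III, 2516 for complex II and 1154 for the NADH dehydrogenases. The median of all 5664 transcripts tested in that comparison was 582 on the same scale. Normalized reads are reads divided by the size factor of the library within its table. ATP2, the catalytic beta subunit, had the highest level of the 36 at 16727 ± 298 reads per kb (SD, n = 2), followed by ATP15 (epsilon) at 13109 ± 157. NDE2 had the lowest at 74.6 ± 35.6, next to CYB2 at 189.5 ± 95.6. The 2 libraries of NDE2 gave 99.7 and 49.4 and those of CYB2 gave 257 and 122. The other external dehydrogenase gene, NDE1, stood at 4520.1 ± 10.2. Within complex III the order ran from QCR8 at 7168 ± 1721 to CYT1, cytochrome c1, at 1987 ± 478. Neighbours in these orders often overlapped, as for COX7 at 4995 ± 863 and COX8 at 5004 ± 499. All members together held 0.783% and 0.694% of the reads in the untreated WT libraries.

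**Figure D1:**
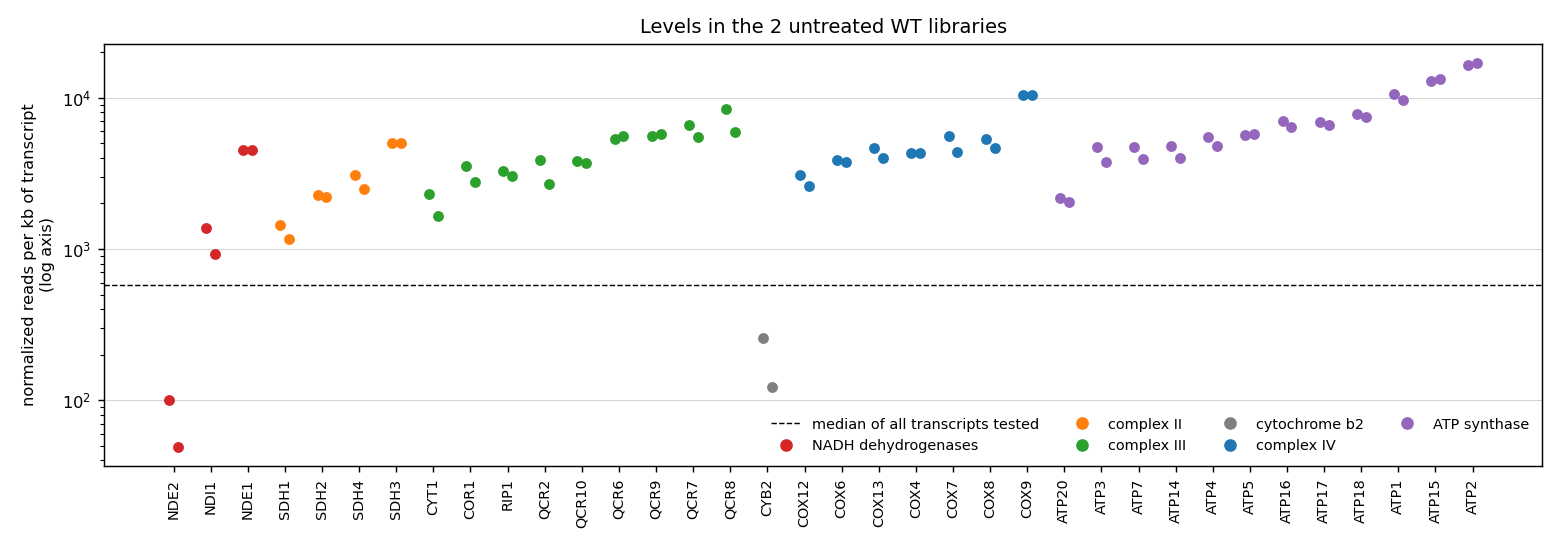
Normalized reads per kb of transcript (log axis) of the 36 genes in the 2 untreated WT libraries, 1 point per library, coloured by complex, with the median of all tested transcripts as a dashed line. ATP2 stands highest at 16727, and NDE2 and CYB2 are the only members under the median of 582.

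Promoters were searched for the core of the Hap2/3/4/5 site, because that complex is the family's known activator. In a window from 250 bases before to 50 after the start codon, taken from the RefSeq R64 genome and searched on both strands, CCAAT occurred in 31 of 36 members (86.1%) and in 43.3% of the 6001 protein-coding genes. The longer pattern ACCAATNA, which contains CCAAT, occurred in 15 of 36 (41.7%) and in 5.75% of all genes. By complex it occurred in 0 of 4 complex II genes, 2 of 9 of complex III, 4 of 7 of complex IV and 6 of 12 of ATP synthase, and in NDI1, NDE1 and CYB2 but not NDE2. A match describes these letters only and is not a binding site. The stretches below come from members that stand at different places in the results: CYB2 among the largest changes, NDI1 for the NADH branch, QCR7, COX8 and COX13 for complexes III and IV, and ATP3 and ATP14 for the stalk subunits of ATP synthase. Each is written 5′ to 3′ on the strand of its gene, with R64 coordinates and the pattern in capitals.
NDI1, chrXIII:30002-30057, minus strand: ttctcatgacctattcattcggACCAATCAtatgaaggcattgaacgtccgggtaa
QCR7, chrIV:1496697-1496756, minus strand: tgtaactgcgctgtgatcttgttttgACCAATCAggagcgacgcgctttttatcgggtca
CYB2, chrXIII:167464-167523, minus strand: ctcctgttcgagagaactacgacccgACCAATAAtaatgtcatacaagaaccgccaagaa
COX8, chrXII:910134-910193, minus strand: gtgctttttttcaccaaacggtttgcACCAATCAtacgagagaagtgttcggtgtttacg
COX13, chrVII:144569-144628, plus strand: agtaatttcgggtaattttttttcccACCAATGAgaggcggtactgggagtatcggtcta
ATP3, chrII:315353-315412, plus strand: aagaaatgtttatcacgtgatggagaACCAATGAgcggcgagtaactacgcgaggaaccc
ATP14, chrXII:722538-722597, minus strand: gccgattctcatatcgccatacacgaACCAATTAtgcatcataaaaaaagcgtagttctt
The pattern begins 228 bases before the start codon in NDI1, 182 in QCR7, 189 in CYB2, 202 in COX8, 213 in COX13, 196 in ATP3 and 198 in ATP14.

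The first comparison asks how continuous perchlorate changed WT cells. Transcripts of every complex rose: 34 of 36 members were called higher and 0 lower, where 14.3% of all 5664 transcripts tested were called higher and 12.1% lower. Calls rest on limma with Benjamini-Hochberg adjustment over all transcripts and an adjusted p under 0.05, on log2 of the normalized value plus 1. The median log2 difference of the members was 0.69, and that of all transcripts was 0. The rise was uneven: the median was 1.95 for CYB2 alone, 0.93 for complex II, 0.76 for complex III, 0.70 for the NADH dehydrogenases, 0.65 for complex IV and 0.60 for ATP synthase. The share of reads held by the 36 genes was 1.25% and 1.23% in the perchlorate libraries. In 35 members both perchlorate libraries lay above both untreated ones, as in 33.7% of all transcripts, and in 1, NDE1, both lay below, as in 34.2%. The 6 markers of a cells were all called lower in the same comparison (median -1.64), with summed normalized reads of 27019 and 29916 untreated and 7936 and 10004 treated, and their part in the result was not tested.

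The NADH dehydrogenases split in this comparison. NDE2 had 163 and 80.9 normalized reads in the untreated libraries and 803 and 582 with perchlorate, a 5.90-fold rise (log2 2.56 ± 0.29, adjusted p = 0.000255). Its groups did not overlap. NDE1, whose protein faces the same compartment, had 7619 and 7595 reads untreated and 7069.6 and 7516 with perchlorate. Its log2 difference of -0.06 ± 0.13 did not pass (adjusted p = 0.758). Summed over the 3 genes there were 9915 and 9104 normalized reads untreated and 10930.3 and 10712 treated. NDI1, the matrix enzyme, had 2132 and 1428 reads untreated and 3057 and 2614 treated, a rise of 0.70 ± 0.19 (adjusted p = 0.0238). CYB2 rose 3.87-fold, from 457 and 217 reads to 1364 and 1094 (log2 1.95 ± 0.29, adjusted p = 0.00123), without overlap.

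All 4 subunits of complex II and all 9 of complex III rose. SDH1, the flavoprotein that binds succinate, had 2761 and 2223 reads untreated and 5192 and 5176 treated (1.06 ± 0.14, adjusted p = 0.000792), the most of complex II. SDH3, a membrane anchor, moved least, from 2981 and 2995 to 4040.3 and 5264 (0.63 ± 0.15, adjusted p = 0.0154). QCR10, a small accessory subunit, led complex III with 894 and 869.7 reads untreated and 1594 and 1906 treated (0.98 ± 0.14, adjusted p = 0.00122). The Rieske iron-sulfur protein gene RIP1 changed least there, by 0.65 ± 0.13. In each of these genes the lowest perchlorate library stood above the highest untreated one.

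The 7 complex IV genes rose by 0.46 to 0.76, with COX13 highest, from 1804 and 1554 reads to 2873 and 2819 (0.76 ± 0.14, adjusted p = 0.0037), and COX6 lowest. Of the 12 ATP synthase genes 11 rose, with ATP15 highest, from 2457 and 2499 reads to 3876 and 4879 (0.81 ± 0.15, adjusted p = 0.00394). The catalytic-core genes ATP1 (alpha) and ATP2 (beta) rose by 0.64 ± 0.13 and 0.55 ± 0.13. ATP20, subunit g of the membrane part, had 761 and 717 reads untreated and 925 and 1014 treated, and at 0.39 ± 0.14 it missed the threshold (adjusted p = 0.061). Fewer members were called without perchlorate replicate 1 and without perchlorate replicate 2, as were fewer of all transcripts. The direction of each called member held in both fits.

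**Figure D2:**
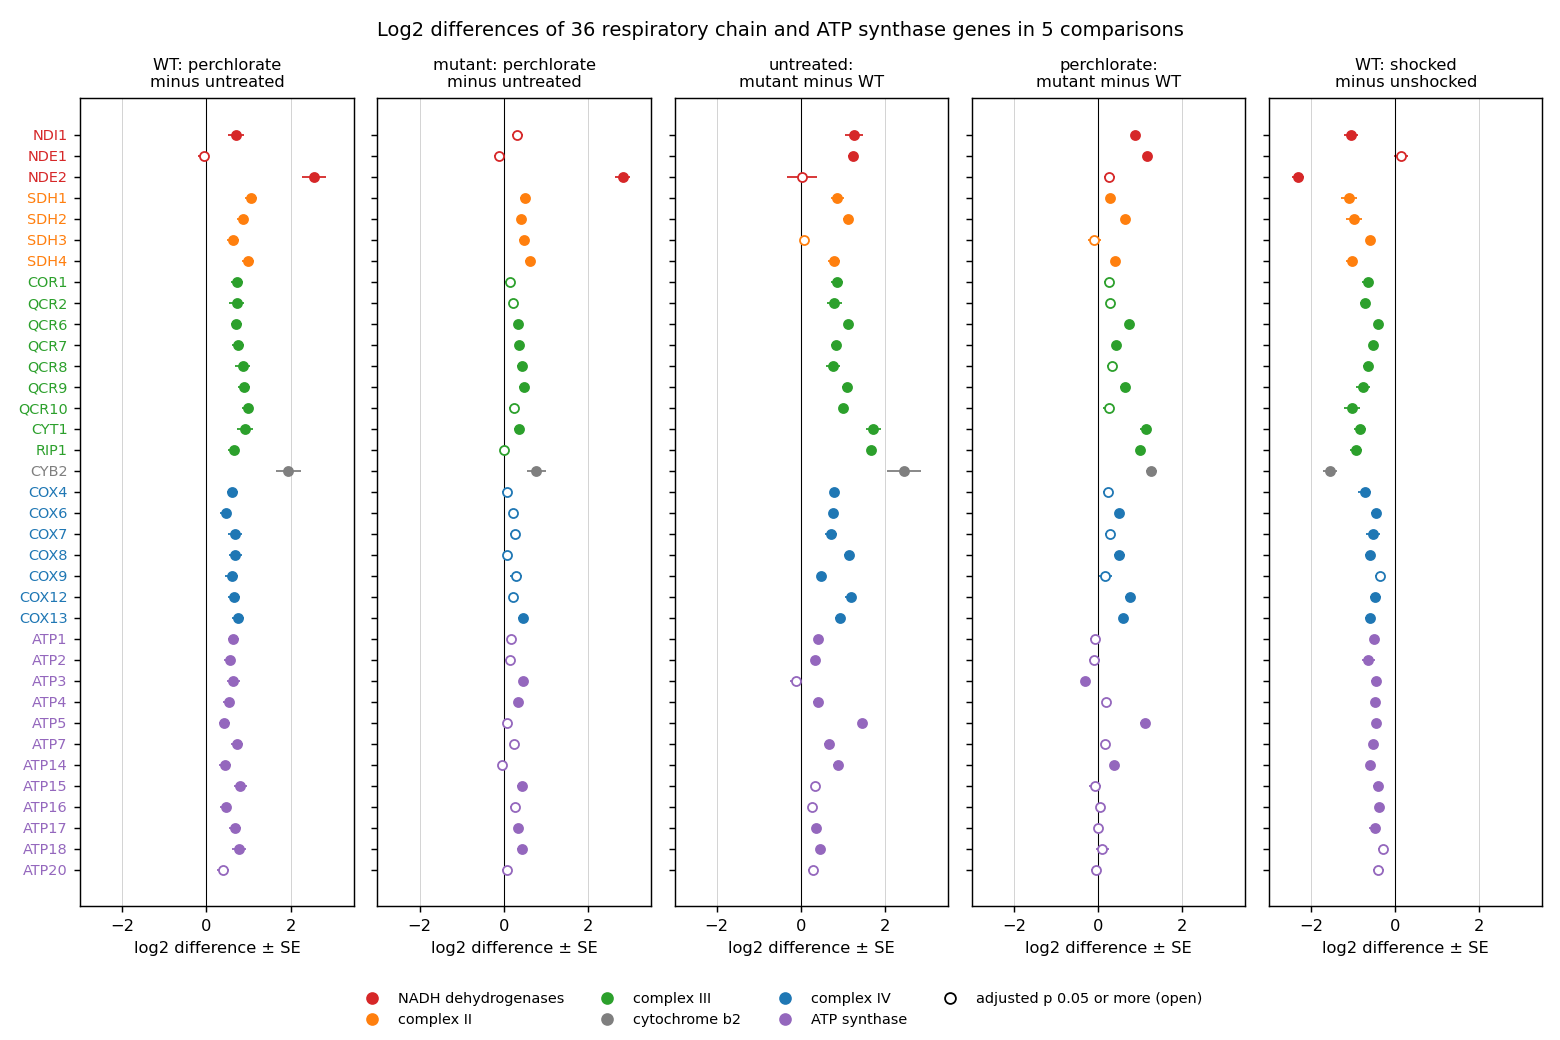
Log2 difference with its standard error for each of the 36 genes (rows, coloured by complex) in the 5 comparisons (panels), filled where the adjusted p is under 0.05 and open otherwise. Perchlorate moved 34 genes up in WT and 17 in the mutant, and the shock moved 32 down.

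The genes around the complexes did not all move with them in WT. All 3 regulators of ATP synthase hydrolysis rose: STF2 by 1.51 ± 0.26, STF1 by 1.17 ± 0.16 and INH1, the inhibitor of the F1 part, by 0.96 ± 0.15 (adjusted p = 0.00315, 0.000903 and 0.00166). Of 12 other subunits and isoforms 8 rose and 0 fell, led by COX26, a small complex IV subunit, at 1.98 ± 0.41. By contrast 4 of 31 complex IV assembly genes rose (median 0.15), as did 2 of 13 for complex III (median 0.13) and 1 of 14 for ATP synthase (median 0.17). These counts lie near or below the share of all transcripts, of which 14.3% were called higher and 12.1% lower. Of 13 coenzyme Q genes 0 rose and 1, YAH1, fell by 0.60. The 1 riser among ATP synthase assembly genes was NCA3, at 2.71 ± 0.15. Among other electron donors 4 of 9 rose, including the NADH-cytochrome b5 reductase MCR1 (1.49 ± 0.19) and the glycerol-3-phosphate dehydrogenase GUT2 (1.31 ± 0.27), and 1, the dihydroorotate dehydrogenase URA1, fell. Of 13 regulators 2 rose, CAT8 (1.37 ± 0.38) and HAP5 (0.70 ± 0.16), also near the 14.3% of all transcripts. HAP4, the activating subunit, had 2634 and 1279 reads untreated and 2785 and 2165 treated, with overlapping groups and an adjusted p of 0.288.

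In the mutant given the same treatment 17 of 36 members were called higher and 0 lower, where 18.0% of all 5670 transcripts were called higher and 15.7% lower. With the replicate number as a block 26 were called higher, and over all transcripts the higher calls went from 1020 to 1248. All 4 markers of alpha cells were called lower in this strain, with summed normalized reads of 28838 and 34563 untreated and 8693 and 10340.0 treated, and their part in the result was not tested. The median was 0.32 for the members, and 34 of 36 had a positive difference. All 17 were also called higher in WT, where 34 of the 36 members were called, so this overlap adds little. Both treated libraries lay above both untreated ones in 28 members and below in 0, where 34.6% and 35.3% of all transcripts did so. By complex 4 of 4 complex II genes rose, 5 of 9 of complex III, 1 of 7 of complex IV and 5 of 12 of ATP synthase, as well as NDE2 and CYB2. The summed reads of ATP synthase were 101679 and 98946 untreated and 110590.0 and 119837 with perchlorate.

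NDE2 had 152 and 106 reads in the untreated mutant and 891 and 931 with perchlorate, a 7.13-fold rise (2.83 ± 0.17, adjusted p = 3.52e-06). NDE1 again did not pass, with 20830.2 and 18257 reads untreated and 18359 and 17719 treated (-0.11 ± 0.11, adjusted p = 0.444). NDI1 had 5352 and 3926 reads untreated and 5949 and 5614 treated, and its difference of 0.33 ± 0.14 missed the threshold (adjusted p = 0.0911). CYB2 rose 1.72-fold from 2581 and 1384 reads to 3479 and 3022 (0.78 ± 0.23, adjusted p = 0.0312). That call was lost with DESeq2 (adjusted p = 0.234) and without mutant untreated replicate 2 (0.33, adjusted p = 0.0551), and the authors' deposited table gives an adjusted p of 0.246. Of the 3 dehydrogenases, then, the low-abundance NDE2 was the 1 that passed in this strain.

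SDH4, a membrane anchor, led complex II in the mutant with 3105 and 2628 reads untreated and 4133 and 4647 treated (0.62 ± 0.11, adjusted p = 0.00322), and SDH2 moved least at 0.41 ± 0.09. QCR9 led complex III, from 2707 and 2596 reads to 3387 and 4040.3 (0.48 ± 0.11, adjusted p = 0.00889). RIP1 gave 7414 and 6762 reads untreated and 6814 and 7425 treated, a difference of 0.01 ± 0.10 with overlapping groups. COX13 was the 1 complex IV gene called, from 3465 and 3501 reads to 4477 and 5067 (0.45 ± 0.10, adjusted p = 0.00763), and COX4 the least moved at 0.07 ± 0.10. ATP3, the gamma subunit of the rotor, led ATP synthase with 4069.7 and 3891 reads untreated and 5566 and 5481 treated (0.47 ± 0.09, adjusted p = 0.00395), and ATP14 stood at -0.03 ± 0.09. Without mutant perchlorate replicate 2 fewer members were called, as were fewer of all transcripts.

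Around the complexes in the mutant, 5 of 12 other subunits rose and 1, the cytochrome c gene CYC1, fell by 0.40 ± 0.09 (adjusted p = 0.0127). Of the 3 ATP synthase regulators STF1 rose by 0.89 ± 0.10, and INH1 (0.34 ± 0.13) and STF2 (0.37 ± 0.15) did not pass. Complex IV assembly genes gave 3 rises and 1 fall among 31, where 18.0% of all transcripts rose and 15.7% fell. The regulator MIG1, a glucose repressor, fell by 0.70 ± 0.11 (adjusted p = 0.00192).

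An interaction term fitted to the 8 perchlorate and untreated libraries asked whether the 2 strains responded differently. None of the 36 members passed in either direction with limma, where 1.89% of 5615 transcripts passed as higher and 0.695% as lower in the mutant. At an unadjusted p under 0.05 the members gave 16, against 13.4% of all transcripts. At an adjusted p under 0.05 edgeR gave 0 members and DESeq2 2, RIP1 and QCR10. DESeq2 gave 141 higher and 80 lower of all transcripts. The mutant's response minus that of WT was below 0 in 35 of 36, with a median difference of -0.40. One of the 35, NDE1, did not change less in the mutant, with -0.06 in WT and -0.11 in the mutant. A p that misses the threshold does not show that the strains respond alike. RIP1 had the smallest p of the 36, a difference of -0.64 ± 0.14 (adjusted p = 0.055). CYB2 had the widest gap, -1.18 ± 0.50 (adjusted p = 0.35). QCR10 led complex III at -0.73 ± 0.19, COX8 led complex IV at -0.61 ± 0.17, SDH1 led complex II at -0.57 ± 0.19 and ATP14 led ATP synthase at -0.48 ± 0.15. NDE2 had a difference of 0.27 ± 0.43, within 1 standard error of 0, and of -0.23 without WT untreated replicate 1. Without WT untreated replicate 1 more members were called with a lower response in the mutant, as were more of all transcripts.

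**Figure D3:**
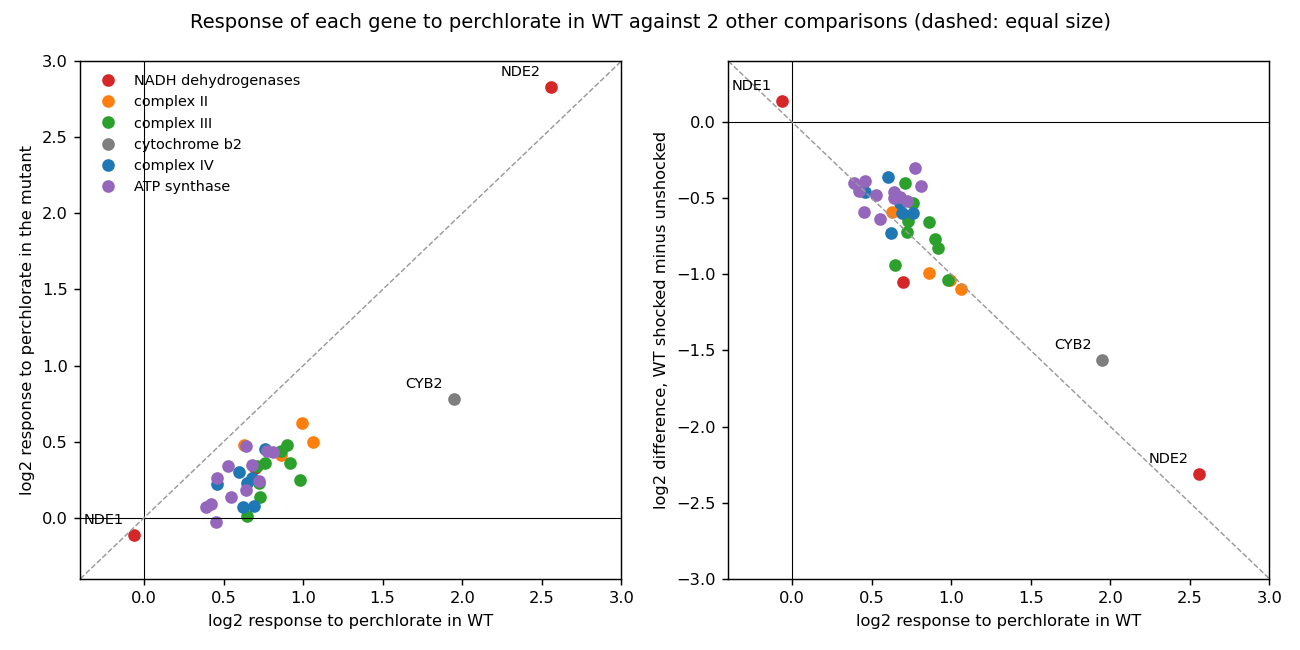
Log2 response to perchlorate in WT (x axis) against the response in the mutant (left) and the difference of shocked from unshocked WT (right), 1 point per gene, coloured by complex, with a dashed line of equal size. On the left 35 points lie below the line and NDE2 above it. On the right 35 genes lie below 0 and NDE1 at 0.14.

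Untreated, the mutant already held more of these transcripts than WT. In this comparison 30 of 36 members were higher in the mutant and 0 lower, where 11.0% of all 5665 transcripts were higher and 11.6% lower, and the members' median was 0.80 against 0.01 for all transcripts. CYB2 stood at 2.46, then medians of 1.23 for the NADH dehydrogenases, 1.01 for complex III, 0.83 for complex II, 0.80 for complex IV and 0.38 for ATP synthase. All 9 complex III and all 7 complex IV genes were higher, and 8 of 12 ATP synthase genes. The 6 not called were NDE2, SDH3, ATP3, ATP15, ATP16 and ATP20. Both mutant libraries lay above both WT libraries in 34 members and below in 0, where 31.5% and 31.8% of all transcripts did so. The 36 genes held 1.39% and 1.33% of reads in the untreated mutant. This comparison shares its WT libraries with the perchlorate comparison in WT, and its mutant libraries with that in the mutant.

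Of the external NADH dehydrogenases it was NDE1 that differed between genotypes. It had 7502 and 7555 reads in WT and 18939 and 16570.4 in the mutant, 2.35-fold more (1.23 ± 0.10, adjusted p = 0.000566). NDE2 had 161 and 80.5 reads in WT and 138 and 95.9 in the mutant (0.02 ± 0.36, adjusted p = 0.981), and its groups overlapped. NDI1 was 2.41-fold higher, with 2099 and 1421 reads in WT and 4866 and 3564 in the mutant (1.27 ± 0.22, adjusted p = 0.0101). CYB2 was 5.50-fold higher, from 449.6 and 215 reads to 2347 and 1256 (2.46 ± 0.40, adjusted p = 0.00796), the widest difference of the 36 and also the one with the largest standard error.

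In complex III the genes of the electron carriers cytochrome c1 and the Rieske protein differed most. CYT1 had 2129 and 1525 reads in WT and 6523 and 5392 in the mutant (1.72 ± 0.18, adjusted p = 0.00157), and RIP1 had 2101 and 1953 against 6741 and 6138 (1.67 ± 0.10, adjusted p = 0.000202). The other 7 lay between 0.77 ± 0.16 for QCR8 and 1.13 ± 0.10 for QCR6. In complex II, SDH2, the iron-sulfur subunit, had 1800.4 and 1762 reads in WT and 3924 and 3752 in the mutant (1.11 ± 0.10, adjusted p = 0.000817). SDH3, its membrane partner, had 2935 and 2979 against 3053 and 3163 (0.07 ± 0.09, adjusted p = 0.629). Complex IV ran from COX9 at 0.48 ± 0.10 to COX12, from 769 and 653 reads to 1540.2 and 1690.2 (1.19 ± 0.13, adjusted p = 0.00174).

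ATP synthase genes ranged from -0.12 to 1.46 between genotypes. ATP5, the stalk subunit that links the F1 head to the membrane part, had 3553 and 3658 reads in WT and 9566 and 10227 in the mutant, 2.74-fold more (1.46 ± 0.09, adjusted p = 0.000216). Of the other peripheral stalk genes ATP14 stood at 0.88 ± 0.12, ATP7 at 0.66 ± 0.12 and ATP4 at 0.40 ± 0.10. ATP1 and ATP2 stood at 0.40 ± 0.09 and 0.34 ± 0.08. ATP3 had 4389 and 3513 reads in WT and 3700.2 and 3532 in the mutant, a difference of -0.12 ± 0.13 with overlapping groups (adjusted p = 0.553). With perchlorate in WT, ATP5 and ATP3 had risen by 0.42 ± 0.13 and 0.64 ± 0.15.

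**Figure D4:**
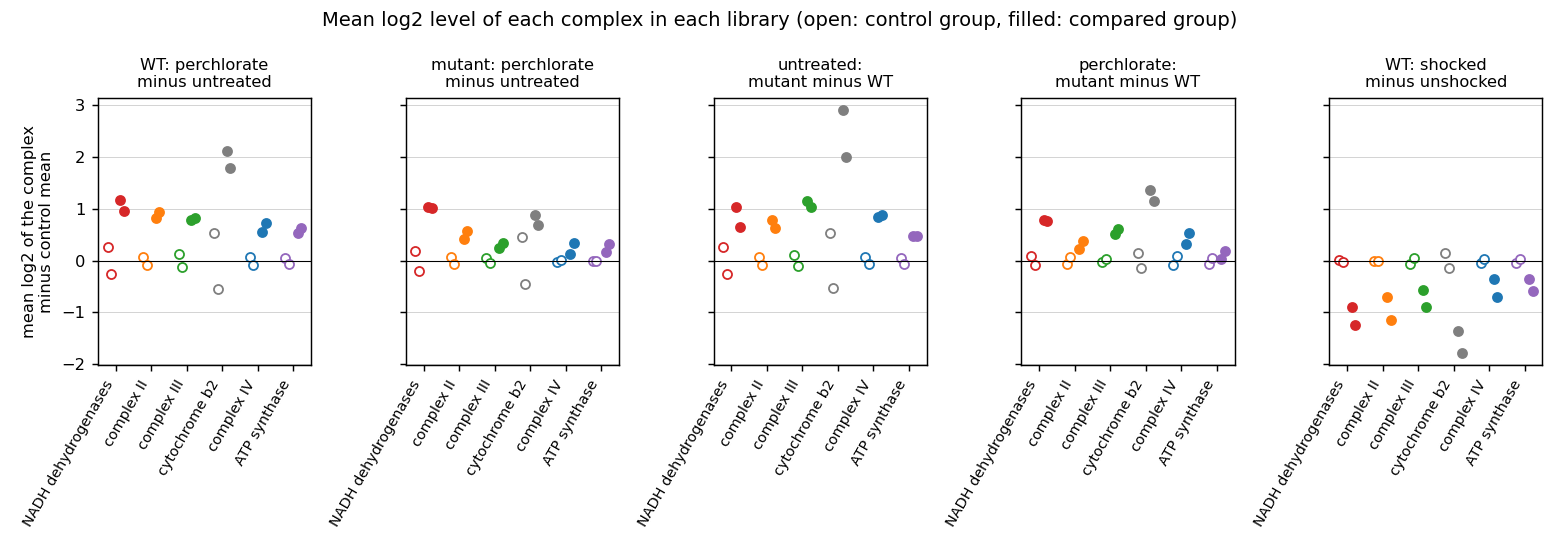
Mean log2 level of each complex in each library minus the mean of its control group, by comparison, with open points for the control group and filled points for the compared group, 2 libraries each. ATP synthase shows the smallest shift of the complexes in the mutant, at 0.48 and 0.47 untreated and 0.04 and 0.19 above WT under perchlorate.

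Cytochrome c and the isoforms of one complex IV subunit differed by more than most members. CYC1 had 1231 and 1128 reads in untreated WT and 11059.7 and 10637 in the mutant (3.20 ± 0.10, adjusted p = 1.02e-05), and the second cytochrome c gene, CYC7, had 156 and 93.0 against 709 and 405 (2.14 ± 0.33). The complex IV subunit V isoforms moved apart: COX5A, the aerobic form, was higher by 2.28 ± 0.09 with 2243 and 2234 reads against 10969.6 and 10821, and COX5B, the hypoxic form, was lower, with 1032 and 967 against 249 and 202 (-2.15 ± 0.15, adjusted p = 0.000303). Reads of HAP1 were lower, at 4157 and 3189 against 1839.6 and 1354 (-1.21 ± 0.19, adjusted p = 0.00657). The intact HAP1 product is a haem-dependent activator of CYC1, CYC7 and other respiratory genes. Whether either strain makes active Hap1 cannot be read from these counts. HAP5 was higher by 1.51 ± 0.13. HAP4 had 2594 and 1272 against 3777 and 2914, without overlap, and missed the threshold (adjusted p = 0.103). Many assembly genes were higher too: 20 of 31 for complex IV were higher and 1 lower (median 0.60), 8 of 13 for complex III (median 0.61) and 9 of 14 for ATP synthase (median 0.61). Over all transcripts 11.0% were higher and 11.6% lower. The part of strain background in these differences was not tested.

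Reads from the mitochondrial genome were few in these libraries, and they differed between strains in opposite directions. COX1 had 299 and 204 reads in untreated WT and 14 and 12 in the mutant (-4.33 ± 0.24, adjusted p = 0.000116). OLI1, ATP synthase subunit c, had 351 and 185 against 88 and 88 (-1.71 ± 0.26), and ATP6 had 5 and 2 against 77 and 62 (3.89 ± 0.41). Of the 7 listed mitochondrial genes 3 passed the filter, and COX2 and COB had 0 to 2 reads in each of these libraries.

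With perchlorate in both strains 17 of 36 members were higher in the mutant and 1 lower, where 16.3% of all 5701 transcripts were higher and 15.6% lower, and the median was 0.29. With the replicate number as a block 26 were higher and 1 lower, and over all transcripts the higher calls went from 931 to 1514. Both mutant libraries lay above both WT libraries in 25 members and below in 2, where 34.4% and 35.2% of all transcripts did so. All 17 were also among the 30 higher without perchlorate, and the share of all transcripts with both calls was not counted. Of the 12 ATP synthase genes 2 were higher, ATP5 and ATP14, and the complex median was 0.03. NDE1 stood at 7823 and 8385 reads in WT and 18490.1 and 17785 in the mutant (1.16 ± 0.10, adjusted p = 8.00e-05), and NDI1 at 3383 and 2917 against 5992 and 5635 (0.89 ± 0.11). NDE2 had 889 and 649 against 898 and 934 (0.27 ± 0.14, adjusted p = 0.184). CYB2 was 2.40-fold higher, 1509 and 1221 against 3504 and 3033 (1.26 ± 0.13, adjusted p = 0.000136).

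CYT1 had 4367 and 3372 reads in perchlorate-treated WT and 9141 and 7742 in the mutant (1.13 ± 0.14, adjusted p = 0.000454), and RIP1 3416 and 3719 against 6863 and 7453 (1.00 ± 0.10, adjusted p = 0.000137), the 2 largest of complex III. ATP5 had 5025 and 5839 against 10677 and 12736 (1.11 ± 0.12, adjusted p = 0.000269). COX12 led complex IV with 1235 and 1256 against 1994 and 2201 (0.75 ± 0.10, adjusted p = 0.000517), and SDH2 led complex II with 3569.9 and 3684 against 5514 and 5788 (0.64 ± 0.09). ATP3 was the 1 member lower in the mutant, 7163 and 6593 against 5606 and 5502 (-0.31 ± 0.10, adjusted p = 0.0413). That call was lost on TMM scaling (adjusted p = 0.0537), with edgeR (0.0557) and without any 1 of the 4 libraries.

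**Figure D5:**
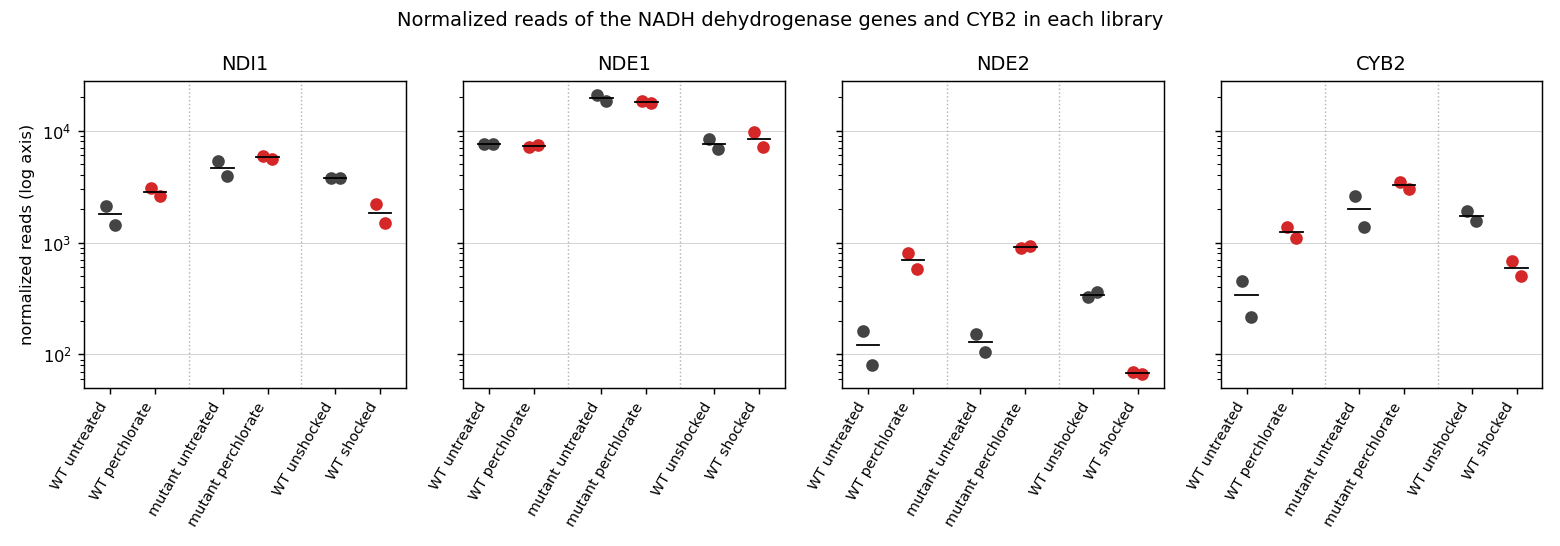
Normalized reads (log axis) of NDI1, NDE1, NDE2 and CYB2 in each library, 2 points per group with the group mean as a bar, dotted lines separating tables that were normalized on their own. NDE2 rises with perchlorate in both strains, NDE1 is higher in the mutant with and without it, and NDE2 and CYB2 fall after the shock.

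The last comparison asks what recovery from the shock wave did in WT. Nearly all members fell: 32 of 36 were called lower and 0 higher, where 17.3% of all 5668 transcripts were called lower and 18.1% higher, and the median was -0.59. Of the 6 markers of a cells 5 were called higher (median 0.59), with summed normalized reads of 30989 and 31786 unshocked and 45215 and 42724 shocked. MF(ALPHA)2, the other alpha-factor gene, had 5 and 10 reads unshocked and 23 and 158 shocked (2.97 ± 0.79, adjusted p = 0.03), and MF(ALPHA)1 had 12 and 40 against 44 and 111, so shocked replicate 2 held the most. Of the 4 alpha-cell markers 2 were called higher, MF(ALPHA)2 and SAG1 (0.49 ± 0.13), and STE3 stood at 0.10 ± 0.28. The part of these markers in the result was not tested. CYB2 stood at -1.56, the NADH dehydrogenases at a median of -1.05, complex II at -1.02, complex III at -0.72, complex IV at -0.53 and ATP synthase at -0.47. The 36 genes held 0.887% and 0.971% of reads in the unshocked libraries and 0.670% and 0.559% in the shocked ones. Of the 4 not called, NDE1 stood at 0.14 ± 0.17, COX9 at -0.36 ± 0.11, ATP18 at -0.30 ± 0.11 and ATP20 at -0.40 ± 0.13.

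NDE2 had 326 and 359 reads unshocked and 69.4 and 67.1 shocked (-2.31 ± 0.14, adjusted p = 0.000639). NDE1 had 8348 and 6867 against 9747 and 7124, with overlapping groups (adjusted p = 0.564). NDI1 had 3775 and 3788 against 2199 and 1509.6 (-1.05 ± 0.17, adjusted p = 0.00598). CYB2 had 1907 and 1564 against 678 and 503 (-1.56 ± 0.17, adjusted p = 0.00144). Of the external dehydrogenases NDE2 was again the one that passed.

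SDH1 fell from 5162 and 5096 reads to 2914 and 1967 (-1.10 ± 0.18, adjusted p = 0.00591), the most of complex II, and SDH3 the least (-0.59 ± 0.10). QCR10 had 1325 and 1574 reads unshocked and 851 and 578 shocked (-1.04 ± 0.19, adjusted p = 0.00891), and QCR6 moved least of complex III at -0.40 ± 0.10. COX4 led complex IV, 2913 and 3113 against 2145 and 1531 (-0.73 ± 0.16, adjusted p = 0.0161). ATP2 led ATP synthase, with 35089.9 and 35539 reads unshocked and 25609.7 and 20130.5 shocked (-0.64 ± 0.16, adjusted p = 0.023). In each of these genes both shocked libraries lay below both unshocked ones, as they did in 35 of 36 members and in 36.7% of all transcripts, and shocked replicate 2 was the lower of the pair. No member lay higher in both shocked libraries, as 36.8% of all transcripts did.

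The number called after the shock rested on both unshocked libraries. Without unshocked replicate 1 it was 4 (NDE2, SDH4, QCR2 and CYB2), without unshocked replicate 2 it was 2 (NDE2 and CYB2) and without shocked replicate 2 it was 21. Over all transcripts the calls fell with them, from 1026 higher and 981 lower to 438 and 255 without unshocked replicate 1 and to 265 and 188 without unshocked replicate 2, and the median of each complex stayed negative in all 4 fits.

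Among neighbouring genes the shock lowered all 3 ATP synthase regulators, with STF2 at -1.43 ± 0.20, STF1 at -1.35 ± 0.10 and INH1 at -0.94 ± 0.12. Of 13 coenzyme Q genes 8 fell, led by COQ4 (-0.72 ± 0.10), and of 31 complex IV assembly genes 14 fell, where 17.3% of all transcripts fell. Other subunits and isoforms gave 7 falls among 12, led by SHH3 (-2.16 ± 0.50), COX26 (-1.82 ± 0.37) and CYC7 (-1.75 ± 0.26). The NADH-cytochrome b5 reductase MCR1 fell by 0.99, and AAC3, the anaerobic ADP/ATP carrier, rose by 1.00 ± 0.20 (adjusted p = 0.0132), the opposite of its fall by 1.36 in perchlorate-treated WT. COX1 and OLI1 had 239 to 311 and 246 to 286 reads in the 4 libraries and did not pass.

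Set beside each other, 32 members were called both higher with perchlorate and lower after the shock in WT, comparisons that share no library. Taken singly, 14.3% of all transcripts were called higher with perchlorate and 17.3% lower after the shock. The share of all transcripts with both calls was not counted. Across the 36 genes the log2 differences had a Pearson r of -0.91, and of -0.74 over the 34 without NDE2 and CYB2, where all 5642 transcripts tested in both gave -0.65. For perchlorate in the mutant against the shock, r was -0.77 over the 36 and -0.34 over the 34, where all 5610 transcripts gave -0.50. The perchlorate responses of the 2 strains, which also share no library, had r of 0.87 over the 36 and 0.71 over the 34, against 0.77 over 5615 transcripts. These are descriptions across genes, which are not independent, and gene-specific features such as level are shared by both axes. By the authors' deposited table, at their adjusted p under 0.05, 34 members were higher with perchlorate in WT and 16 in the mutant. The authors' deposited table gave 31 members higher in the untreated mutant, 19 higher and 1 lower in the treated mutant, and 32 lower after the shock. The share of all transcripts called in the authors' deposited tables was not counted, so these member counts stand without a background.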

How the data were processed

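RNA was extracted with hot phenol and libraries were made with a directional kit, per the labels' protocols. Per the submitters' processing notes the tools were Trim Galore, FastQC and HISAT2, without versions, and DESeq2. The read counter, its strand setting and the build aligned to were not given in the sources used here. The authors deposited 5 tables of normalized counts, a signal equal to reads divided by the DESeq2 1.34.0 size factor within that table. The authors also deposited log2 fold changes with standard errors and adjusted p-values from DESeq2. These are used above for counts of calls and for the adjusted p of CYB2 with perchlorate in the mutant.

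Transcripts were matched to RefSeq names of the R64 annotation, 5944 of 5970 by accession and 26 by locus tag. Of these, 3 that are absent from the authors' sheets of comparisons were left out. Whole reads were recovered from 100.0% of values within 0.01 reads, and 0 columns of per-sample values were left unmapped. The members and the gene lists were chosen with earlier results of these data known. Because the tables hold normalized values, limma 3.58.1 in R 4.3.3 (eBayes with trend, log2 of the value plus 1, mean of at least 10 over the 4 libraries, Benjamini-Hochberg over all transcripts of the table) was the main test, within each table, and the interaction was fitted over 8 libraries. Errors beside log2 differences are limma's standard errors, and those beside levels are SDs of 2 libraries. edgeR 4.0.16 and DESeq2 1.42.0 on recovered reads, other pseudocounts (0.5 and 5), no filter or a mean of at least 50, other scalings, a replicate block and leaving out each library were alternatives. The fits were also run on simulated reads with known changes, drawn independently for each library. Those runs do not test libraries that deviate together. With 1 library left out, the lone library of its group is assumed to vary like the others. Named were NDI1, NDE1, NDE2 and CYB2, the most and least changed member of each complex, and up to 3 called genes of each other list, and other genes were named after their values were seen. No member overlaps another gene or has a near-identical copy.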

Additional observations from a re-analysis of the deposited data

Results flagged for a closer look

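Of the 121 genes tested in the lists around the complexes, 4 (3.31%) had a response to perchlorate that differed between the strains, where 2.58% of all transcripts did, by limma over 8 libraries with Benjamini-Hochberg adjustment. COX5B, the hypoxic isoform of complex IV subunit V, had a response 0.85 higher on the log2 scale in the mutant, with -0.20 in WT and 0.65 in the mutant (adjusted p = 0.0493). COX20, an assembly factor for a complex IV subunit, had a difference of -0.85, with 1.09 in WT and 0.24 in the mutant (adjusted p = 0.0297). NCA3 had a difference of -1.59, with 2.71 in WT and 1.12 in the mutant (adjusted p = 0.00209). DLD3, a cytosolic D-lactate dehydrogenase, had a difference of 1.27, with -0.28 in WT and 0.99 in the mutant (adjusted p = 0.00209). None of the 36 members is among them.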

How the results depend on the processing

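The replicate numbers only name the samples, and the deviations of same-numbered libraries correlated at 0.287 (perchlorate in WT), 0.119 (perchlorate in the mutant), 0.508 (genotype, untreated), 0.372 (genotype, perchlorate) and 0.232 (shock) over transcripts, with 2 pairs each. With the replicate block 35, 26, 33, 26 and 35 members were called in those comparisons (34, 17, 30, 17 and 32 without it). The fourth had 1 lower as well, and the interaction had 1 (CYT1). Calls over all transcripts rose too. In the perchlorate and genotype comparisons the higher calls went from 811 to 1245, 1020 to 1248, 621 to 1226 and 931 to 1514. After the shock the lower calls went from 981 to 1225. In the interaction the calls went from 106 higher and 39 lower to 120 and 67. DESeq2 called 2 members in the interaction, where it called 141 of all transcripts higher and 80 lower. TMM scaling and edgeR left 0 members lower in the treated mutant.

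Leaving out 1 library gave 20 to 34 members called with perchlorate in WT, 10 to 21 in the mutant, 2 to 35 after the shock and 0 to 9 in the interaction, and 0 lower in the treated mutant. Calls over all transcripts also varied widely with the library left out, so these member counts cannot be read apart from that background. Each such fit leaves a lone library in its group. Some member results in both genotype comparisons were weaker as well. Over the other settings, 321 of 324 member results in WT with perchlorate kept direction and call, and 312 in the mutant. Between genotypes 312 and 306 did so, and 317 after the shock. No member that had passed its test changed sign.

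The signs that turned belong to differences near 0, and the cause was not tested. In the untreated mutant against WT, NDE2 was -0.02 with upper-quartile scaling and -0.04 with edgeR and DESeq2. The ranges over libraries left out were as follows. With perchlorate in the mutant RIP1 ran from -0.06 to 0.07, COX4 from -0.04 to 0.17, COX8 from -0.02 to 0.18, ATP5 from -0.04 to 0.22, ATP14 from -0.07 to 0.01 and ATP20 from -0.04 to 0.17. In the untreated mutant against WT, NDE2 ran from -0.48 to 0.51 and ATP3 from -0.28 to 0.04. In the treated mutant against WT, the ATP synthase median ran from -0.09 to 0.11, SDH3 from -0.29 to 0.10, COX9 from -0.08 to 0.41, ATP15 from -0.25 to 0.11, ATP16 from -0.04 to 0.12, ATP17 from -0.09 to 0.11, ATP18 from -0.10 to 0.30 and ATP20 from -0.16 to 0.05. After the shock NDE1 ran from -0.09 to 0.36. In the interaction the median of the NADH dehydrogenases ran from -0.23 to 0.04, NDE1 from -0.15 to 0.04, NDE2 from -0.23 to 0.78, SDH3 from -0.34 to 0.04 and ATP3 from -0.34 to 0.00. In a window of 500 bases before the start codon, chosen after seeing the data, 33 of 36 members and 62.4% of genes held CCAAT.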

Other observations

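The labels give untreated and unshocked WT the same medium, temperature and density. Scaled to each library's total, as CPM, 26 of 36 members were higher in both unshocked libraries than in both untreated ones, 0 were lower and 10 overlapped, where 44.5% of all transcripts were higher and 29.4% lower. The following were chosen after their values were seen. ATP1 was at 1112 and 978 untreated and at 1097 and 1207 unshocked, and CYT1 at 139 and 95.3 against 132 and 135. NDE2 was at 10.5 and 5.03 in untreated WT and at 18.7 and 21.9 in unshocked WT. CYB2 was at 29.2 and 13.5 in untreated WT and at 109 and 95.6 in unshocked WT, and SDH1 at 177 and 138 against 295 and 311. The shocked libraries gave 3.97 and 3.98 for NDE2, 38.8 and 29.8 for CYB2 and 167 and 116 for SDH1. The 2 sets belong to different experiments, and the differences were not tested.

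In WT with perchlorate AAC1 rose by 1.22 ± 0.16 and AAC3, whose gene is used without oxygen, fell by 1.36. In the untreated mutant compared with WT, AAC1 was higher by 0.99 ± 0.14 and AAC3 lower, at -1.10 ± 0.19.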
